A study of Mus musculus with 6 samples.

Results

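Respiratory complex I is the NADH dehydrogenase of the mitochondrial inner membrane, and most of its nuclear genes carry symbols that start with Nduf. All protein-coding genes with such a symbol and an array row of their own were taken, 42 of 22180 genes measured. They comprised 34 subunit genes, with Ndufa4 and Ndufa4l2 among them, and 8 Ndufaf genes for assembly factors. RNA came from pooled C57BL/6 mouse hearts at embryonic day 9.5 and was read on Affymetrix arrays. One group was 3 pools of Hdac3-flox/flox hearts, in which both Hdac3 alleles are floxed and no Cre is listed. The other was 3 pools of hearts with the same alleles and Isl1-Cre (Hdac3-flox/flox; Isl1-Cre, here Hdac3-Isl1KO). This Cre is driven by Isl1, a gene of second heart field progenitors, so only some of the cells in a whole heart carry the deletion. An effect of Isl1-Cre without the deletion and one of Hdac3 loss cannot be told apart in this design. How many hearts or litters made a pool is not stated in the labels, so p-values measure the spread between pools, which may be partly technical. Nor can fewer cells of a type and less RNA per cell be told apart in whole hearts.

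Complex I takes electrons from NADH, passes them along a flavin and iron-sulfur clusters to ubiquinone, and pumps protons across the inner membrane. Its matrix arm holds the N module, which oxidises NADH, and the Q module, which reduces ubiquinone, and its membrane arm holds the proton pumps. Core subunits do the catalysis and are encoded partly in the nucleus and partly by mitochondrial DNA, accessory subunits surround them, and assembly factors help to build the complex and are not part of it once finished. The early embryonic heart relies largely on glycolysis, and its respiratory chain matures as the heart develops.

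Values are RMA log2 values, on which a difference of 1 is a doubling, and a positive difference means a higher value in Hdac3-Isl1KO. Array medians lay between 5.64 and 5.71 and pairwise correlations between 0.980 and 0.989. Hdac3 read 9.67, 9.73 and 9.64 in Hdac3-flox/flox and 9.11, 9.20 and 9.31 in Hdac3-Isl1KO, a difference of -0.47 (95% interval -0.66 to -0.29, limma adjusted p = 0.0636), and Isl1 differed by -0.03 (-0.27 to 0.20). The heart muscle genes Actc1 and Nppa had Hdac3-flox/flox means of 13.43 and 13.28. Each of the 42 complex I genes had a mean above that of the median array row, 5.66, and the lowest was Ndufa4l2 at 5.85.

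Differences were above 0 for 26 of the 42 complex I genes and below 0 for 16, where 11093 of 22180 genes were above 0. Accessory subunits, 26 of the 42, held 19 of the higher ones. Of the 42 genes 2 rose and 0 fell at an adjusted limma p under 0.05, where 0.23% of all genes rose, 0.198% fell and 0.428% were called in either direction. The genes that rose were Ndufs4, 1.46-fold, and Ndufa4, 1.43-fold. At an unadjusted limma p under 0.05, 14 were higher and 4 lower, against 6.57% and 7.96% of all genes. After quantile normalization of the deposited values these were 18 and 4 members, against 8.25% and 6.34% of all genes. All 3 Hdac3-Isl1KO arrays lay above all 3 Hdac3-flox/flox arrays for 16 members and below them for 5, where 9.41% and 12.4% of all genes did so. Of the 12480 genes above the median row, as all members are, 1357 and 2330 did so. Each of these 16 and 5 members was a subunit gene. The counts of lower members were near the share over all genes, which include dimmer ones. Of the 12480 genes above the median row, 43.3% were above 0. At an unadjusted limma p under 0.05, 831 of them were higher and 1429 lower. The median difference was 0.05 over the members and 9.4e-05 over all genes.

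**Figure D1:**
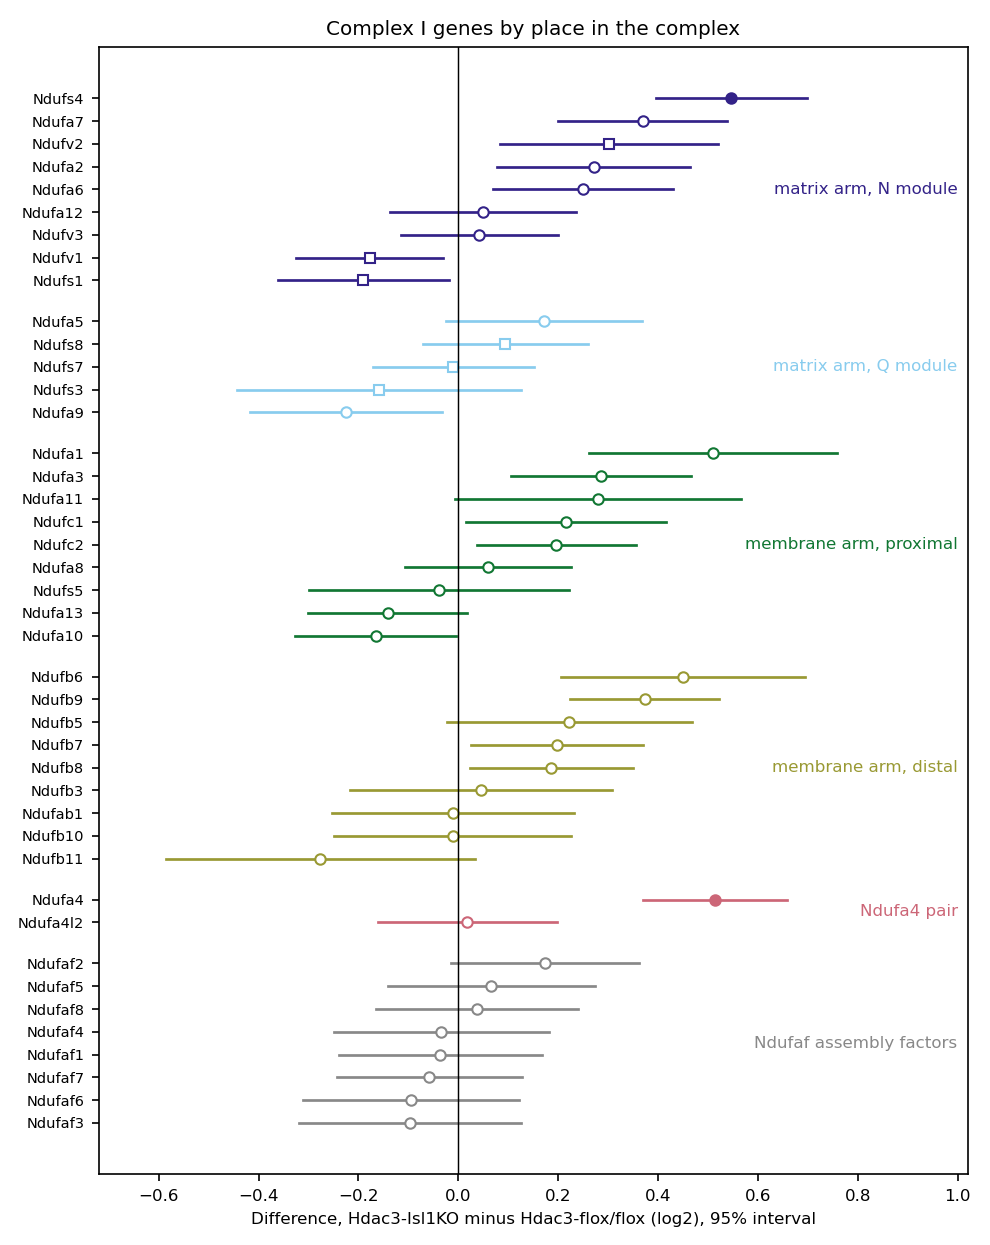
Difference between Hdac3-Isl1KO and Hdac3-flox/flox for each of the 42 complex I genes, on the log2 scale with 95% intervals, grouped by place in the complex. Filled symbols mark the 2 genes past the adjusted threshold, Ndufs4 and Ndufa4, squares mark nuclear core subunits, and the intervals of all 8 Ndufaf genes span 0.

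Ndufs4 is an accessory subunit of the matrix arm whose loss causes a Leigh-like disease in mice. It read 8.85, 8.92 and 8.83 in Hdac3-flox/flox and 9.39, 9.41 and 9.44 in Hdac3-Isl1KO. The groups were far apart relative to their SDs of 0.04 and 0.03 (n = 3 each). The difference was 0.55 (95% interval 0.40 to 0.70, limma adjusted p = 0.0300).

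Ndufa4 was first purified with complex I and was later assigned to complex IV, cytochrome c oxidase. Its arrays read 10.78, 10.81 and 10.80 in Hdac3-flox/flox and 11.31, 11.30 and 11.32 in Hdac3-Isl1KO, with SDs of 0.02 and 0.01 (n = 3 each). The difference was 0.51 (95% interval 0.37 to 0.66, limma adjusted p = 0.0300). Its relative Ndufa4l2, a protein induced in hypoxia, read 5.80, 5.80 and 5.92 against 5.94, 5.77 and 5.86, and its groups overlapped. Both called genes missed the threshold when any of the 6 arrays was left out, with limma adjusted p between 0.0669 and 0.155 for Ndufs4 and between 0.0760 and 0.156 for Ndufa4. Over all settings tried their differences lay between 0.53 and 0.57 and between 0.50 and 0.52.

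The 250 bases before the start of each called gene are shown because Ndufs4 and Ndufa4 are the members past the threshold. They come from RefSeq on GRCm38.p6, lie on the minus strand at chr13:114388095-114388344 and chr6:11907451-11907700, and are written 5′ to 3′. Capitals would mark an exact match to the NRF1, YY1, ETS or estrogen-related receptor letters given further below, and neither stretch holds one. Near matches were not searched for.
Ndufs4: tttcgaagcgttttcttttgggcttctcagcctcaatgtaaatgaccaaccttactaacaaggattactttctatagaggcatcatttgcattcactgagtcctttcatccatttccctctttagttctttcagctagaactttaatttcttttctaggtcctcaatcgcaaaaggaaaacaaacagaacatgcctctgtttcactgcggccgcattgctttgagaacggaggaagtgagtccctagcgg
Ndufa4: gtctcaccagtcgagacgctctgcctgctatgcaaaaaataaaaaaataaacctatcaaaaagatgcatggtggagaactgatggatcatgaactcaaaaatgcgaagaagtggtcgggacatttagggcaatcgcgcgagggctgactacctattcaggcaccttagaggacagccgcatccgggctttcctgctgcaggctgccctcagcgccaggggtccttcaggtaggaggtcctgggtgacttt

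The next 4 members by size of difference were higher in every Hdac3-Isl1KO array than in any Hdac3-flox/flox array but missed the adjusted threshold. Ndufa1, a small membrane subunit encoded on the X chromosome, read 8.41, 8.48 and 8.15 in Hdac3-flox/flox and 8.96, 8.80 and 8.81 in Hdac3-Isl1KO. Its difference was 0.51 (95% interval 0.26 to 0.76, limma adjusted p = 0.112), and Hdac3-flox/flox replicate 3 was the lowest array. Ndufb6, an accessory subunit of the distal membrane arm, read 8.31, 8.47 and 8.11 against 8.78, 8.67 and 8.78, a difference of 0.45 (0.21 to 0.70, limma adjusted p = 0.143), and the same control array was again lowest.

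Ndufb9, a LYR protein of the distal membrane arm that binds an acyl carrier protein, read 11.45, 11.51 and 11.43 against 11.84, 11.81 and 11.86. The difference was 0.37 (95% interval 0.22 to 0.52, limma adjusted p = 0.0736), with SDs of 0.04 and 0.03 (n = 3 each). Ndufa7, an accessory subunit of the N module, read 7.87, 7.86 and 7.82 against 8.14, 8.20 and 8.31, a difference of 0.37 (0.20 to 0.54, limma adjusted p = 0.0978). All 4 genes passed the threshold with genes below the median row left out (limma adjusted p = 0.0275, 0.0390, 0.0114 and 0.0198 for Ndufa1, Ndufb6, Ndufb9 and Ndufa7). They also passed with a trended prior, in which the expected variance depends on a gene's level. Calls over all genes also went up in these settings, from 95 of 22180 genes (0.428%) to 617 of 12480 (4.94%) with the filter and 866 of 22180 (3.9%) with the trended prior. Ndufb9 alone of these 4 passed with array weights as well (0.0409), where 1.1% of all genes did.

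**Figure D2:**
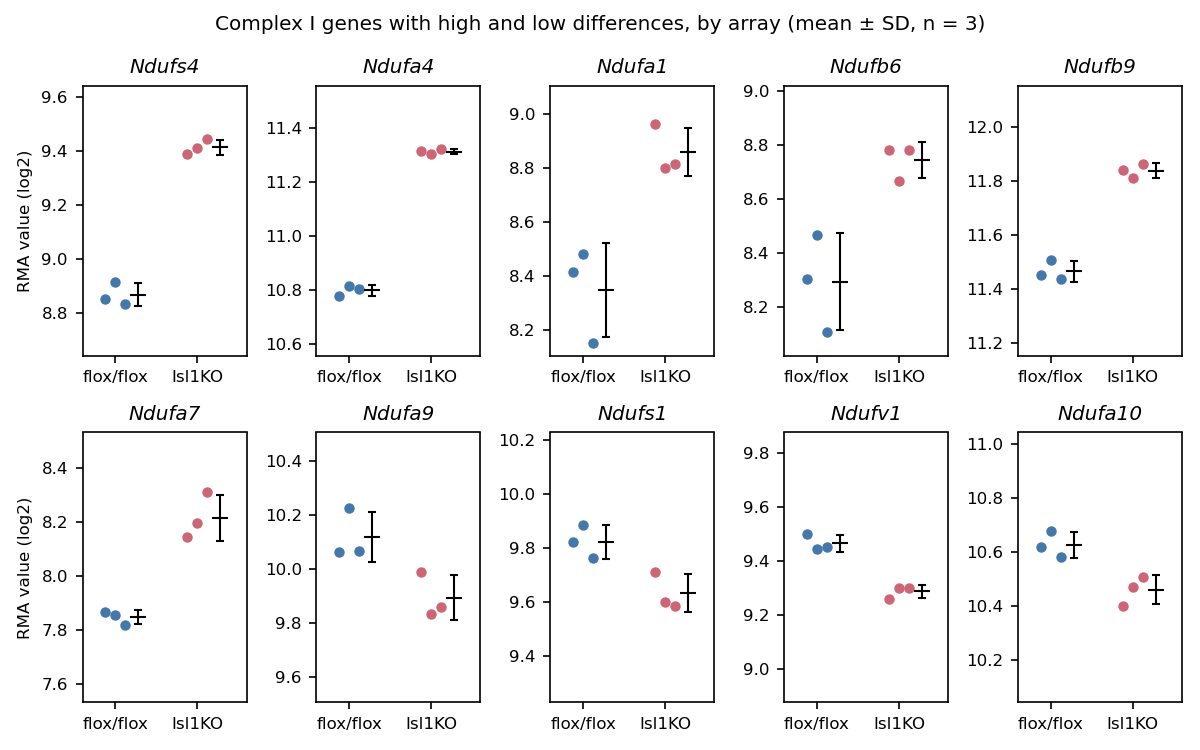
RMA log2 values by array for the 6 members with the highest differences and for 4 members whose Hdac3-Isl1KO arrays all lay lower, with the mean and SD of 3 arrays beside the points. Each panel spans 1 log2 unit around its gene. The groups overlap in no panel. The 4 lower members were chosen for this, and the 6 others for the size of their difference in the same arrays, which favours separation.

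The lower members included large subunits of the matrix arm. Ndufa9, a nucleotide-binding accessory subunit where the arms join, read 10.06, 10.22 and 10.07 in Hdac3-flox/flox and 9.99, 9.83 and 9.86 in Hdac3-Isl1KO, a difference of -0.23 (95% interval -0.42 to -0.03, limma adjusted p = 0.281). Ndufs1, the largest core subunit and a carrier of several iron-sulfur clusters, read 9.82, 9.89 and 9.76 against 9.71, 9.60 and 9.59, a difference of -0.19 (-0.36 to -0.02, limma adjusted p = 0.301). Ndufv1, the core subunit that binds NADH and the flavin, read 9.5, 9.44 and 9.45 against 9.26, 9.30 and 9.30, a difference of -0.18 (-0.32 to -0.03, limma adjusted p = 0.269). The groups did not overlap for any of these genes, yet none passed the adjusted threshold under any of the 16 alternatives.

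Ndufa10, which resembles a nucleoside kinase, read 10.62, 10.68 and 10.58 against 10.40, 10.47 and 10.51 (difference -0.17, 95% interval -0.33 to -0.00496, limma adjusted p = 0.332), and its groups did not overlap. Ndufs3, a core subunit of the Q module, read 8.09, 8.29 and 7.85 against 8.0, 7.82 and 7.94, and its groups overlapped (-0.16, -0.44 to 0.13). Ndufb11, an X-encoded subunit of the distal membrane arm, had the lowest difference of the members, -0.28 (-0.59 to 0.03, limma adjusted p = 0.396). It read 5.90, 6.06 and 6.15 against 5.64, 6.03 and 5.62, and Hdac3-Isl1KO replicate 2 lay within the control range. Ndufa13, also known as GRIM-19, differed by -0.14 with groups that did not overlap (limma adjusted p = 0.397). The X-encoded Ndufa1 and Ndufb11 thus had differences of opposite sign. Xist, the X inactivation RNA, differed by -0.10 (95% interval -0.27 to 0.07), and the part of the sex of the pooled embryos was not tested.

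By role, the 6 nuclear core subunits measured had 2 members above 0 and 4 below, a median of -0.08 and 0 calls. At an unadjusted limma p under 0.05, 1 was higher and 2 lower, against 6.57% and 7.96% of all genes. The highest was Ndufv2, an iron-sulfur subunit that partners Ndufv1, which read 9.88, 9.99 and 9.68 against 10.19, 10.11 and 10.15. Its difference was 0.30 (95% interval 0.08 to 0.52, limma adjusted p = 0.228). Ndufs7 and Ndufs8, which carry the last clusters before ubiquinone, differed by -0.01 and 0.09 with overlapping groups. The 26 accessory subunits had 19 members above 0 and 7 below and a median of 0.19, and 1 rose and 0 fell. At the unadjusted limma p, 12 of them were higher and 2 lower, against the same 6.57% and 7.96%. Over all genes 11093 of 22180 were above 0. The gap between the accessory and core medians was 0.28, which describes these genes and carries no test. Without Hdac3-flox/flox replicate 2 the core median was -0.03.

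By place, 7 of 9 N module genes were above 0, with a median of 0.25, and after Ndufs4, Ndufa7 and Ndufv2 came Ndufa2 (0.27), Ndufa6 (0.25), Ndufa12 (0.05) and Ndufv3 (0.04). In the Q module 2 of 5 were above 0, with a median of -0.01, and Ndufa5 was highest at 0.17. In the proximal membrane arm 6 of 9 were above 0, with a median of 0.20, and Ndufa3 (0.29), Ndufa11 (0.28), Ndufc1 (0.22), Ndufc2 (0.20) and Ndufa8 (0.06) followed Ndufa1. In the distal membrane arm 6 of 9 were above 0, with a median of 0.19, and Ndufb5 (0.22), Ndufb7 (0.20), Ndufb8 (0.19) and Ndufb3 (0.05) followed Ndufb6 and Ndufb9. Ndufab1, the acyl carrier protein itself, and Ndufb10 both differed by -0.01. Apart from Ndufs4, no gene of these modules passed the adjusted threshold. Over all settings the N module median lay between 0.21 and 0.31, that of the proximal arm between 0.17 and 0.23, that of the distal arm between 0.12 and 0.24, and that of the Q module between -0.03 and 0.03.

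**Figure D3:**
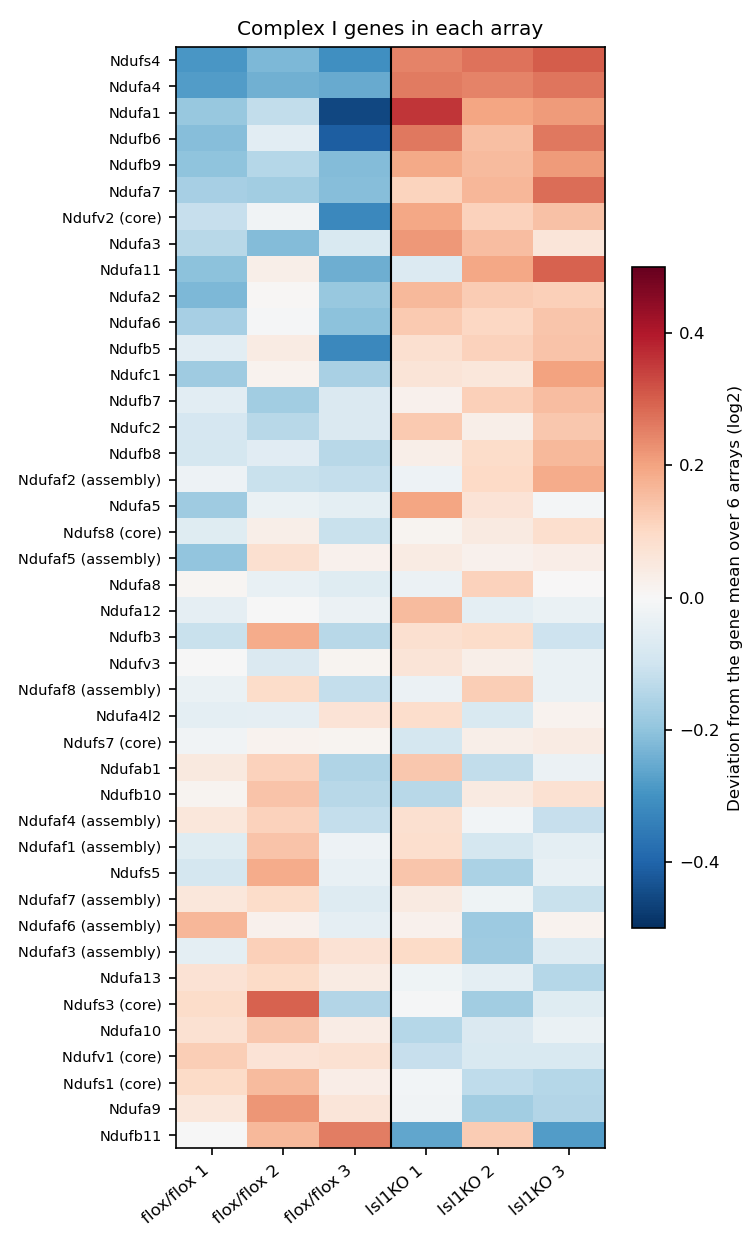
Deviation of each complex I gene from its own mean over the 6 arrays, on the log2 scale, ordered by the difference between the groups, with red above and blue below the mean. Genes at the top, led by Ndufs4 and Ndufa4, are blue in all 3 Hdac3-flox/flox arrays and red in all 3 Hdac3-Isl1KO arrays, and Hdac3-flox/flox replicates 2 and 3 differ from each other for Ndufa1, Ndufb6 and Ndufb5.

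The Ndufaf assembly factors showed no call in either direction. With 0.428% of all genes called, a count of 0 among 8 genes sets them apart from no other set. The 8 Ndufaf genes had 3 members above 0 and 5 below and a median of -0.03, 0 passed limma, adjusted or unadjusted, and the groups overlapped for each of them. The subunits had 23 of 34 above 0 and a median of 0.13, which left a gap of 0.17 between the medians. That gap was above 0 in all 17 settings, between 0.13 and 0.20, while the Ndufaf median ranged from -0.08 to 0.02. Some of these settings, such as the replicate block, change only p-values and so repeat the main gap. The Ndufaf genes varied more between replicates than the subunits, with median SDs of 0.11 in Hdac3-flox/flox and 0.09 in Hdac3-Isl1KO against 0.07 in both groups. Over all genes the median SDs were 0.12 and 0.10, near those of the Ndufaf genes.

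Ndufaf2, a relative of the subunit Ndufa12 that acts late in assembly, had the highest difference among them, 0.17 (95% interval -0.02 to 0.36, limma adjusted p = 0.383). It read 6.20, 6.11 and 6.11 in Hdac3-flox/flox and 6.20, 6.33 and 6.41 in Hdac3-Isl1KO, so that Hdac3-Isl1KO replicate 1 was level with a control array. Ndufaf5, which modifies Ndufs7, read 7.11, 7.39 and 7.33 against 7.35, 7.33 and 7.34 (0.07, -0.14 to 0.27). Ndufaf8, the partner of Ndufaf5, read 7.61, 7.74 and 7.53 against 7.62, 7.77 and 7.61 (0.04, -0.16 to 0.24). All 3 intervals span 0.

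Ndufaf3 and Ndufaf4, which act together on the Q module, differed by -0.10 (95% interval -0.32 to 0.12) and -0.03 (-0.25 to 0.18). Ndufaf3 read 8.04, 8.21 and 8.16 against 8.19, 7.91 and 8.03, and Ndufaf4 read 8.92, 8.97 and 8.74 against 8.94, 8.85 and 8.74. Ndufaf1, which helps to build the membrane arm, read 7.67, 7.87 and 7.70 against 7.81, 7.64 and 7.68 (-0.04, -0.24 to 0.17). In all 3 genes replicate 1 was the highest Hdac3-Isl1KO array. Ndufaf6 read 7.64, 7.50 and 7.43 against 7.50, 7.30 and 7.50 (-0.09, -0.31 to 0.12). Ndufaf7, a methyltransferase, read 8.67, 8.71 and 8.55 against 8.66, 8.59 and 8.50 (-0.06, -0.24 to 0.13).

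Per array, the median deviation of the 34 subunits from their own means was -0.07, 0.003 and -0.13 in Hdac3-flox/flox replicates 1, 2 and 3 and 0.08, 0.08 and 0.07 in Hdac3-Isl1KO. The Hdac3-Isl1KO arrays were alike, while the control arrays were spread, with replicate 2 the highest; that array also had the lowest mean correlation with the others, 0.982. For the Ndufaf genes the same measure was -0.03, 0.09 and -0.05 against 0.04, -0.02 and -0.04, and the groups overlapped. For the core subunits it was 0.04, 0.05 and -0.05 against -0.01, -0.02 and -0.01. Over all genes it was at most 0.01 in any array.

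Some complex I genes were read by rows shared with other genes, whose source is uncertain and which are not among the 42. Both rows of Ndufs6 and its copy Ndufs6b were higher, by 0.38 and 0.39, and one of them read 9.48, 9.46 and 9.53 in Hdac3-flox/flox and 9.90, 9.88 and 9.84 in Hdac3-Isl1KO. A row of Ndufb4 and its copies differed by 0.47 (95% interval 0.23 to 0.72) and a row of Ndufb2 and Adck2 by 0.29 (-0.04 to 0.61). A row of Ndufs1 and Ino80dos differed by -0.29 (-0.67 to 0.09), the same sign as Ndufs1 in its own row. None of these 5 rows passed limma over all array rows, with adjusted p between 0.160 and 0.540. Ndufs5 differed by -0.04 in its own row and by 0.29 (-0.02 to 0.60) in a row shared with its pseudogene, so its value is uncertain. Of the 3 members with a dimmer row of their own, Ndufa11 differed by 0.28 and 0.14, Ndufa8 by 0.06 and -0.03, and Ndufa12 by 0.05 and -0.27. The rows of Ndufa8 and of Ndufa12 thus had opposite signs.

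Other genes of the pathway gave 0 calls in each list (limma), where 0.428% of all genes were called. The mitochondrially encoded subunits ND1 to ND6 with ND4L, 7 genes that form the rest of the core, were all below 0, with a median of -0.06 and 0 at an unadjusted p under 0.05, though ND1, ND4 and ND5 turned sign in some settings. The median level of these genes was 13.62, near the highest value in the data, 14.15, and compression of differences there was not tested. ND6, the dimmest of them at 11.52, had the lowest difference, -0.29 (95% interval -0.63 to 0.04). Of 14 assembly factors with other symbols 7 were above 0 and 7 below, with a median of -0.01. At an unadjusted limma p under 0.05, 3 were higher and 4 lower, against 6.57% and 7.96% of all genes. The lower ones were Foxred1 (-0.31), Dmac2 (-0.29), Tmem186 (-0.24) and Aifm1 (-0.20), and the higher ones Dmac1 (0.22), Chchd4 (0.18) and Cox17 (0.30). Cox17 is a copper chaperone of complex IV and Prdx4 a peroxiredoxin, and without both the list had 6 genes above and 6 below 0. Foxred1, Aifm1 and Cox17 passed the threshold with a trended prior, as did Sdha of complex II and 3.9% of all genes.

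Complex II, which also feeds electrons to ubiquinone, had 4 of 8 genes above 0 and a median of 0.008. Sdhaf4, one of its assembly factors, was 0.43 higher (95% interval 0.16 to 0.71, limma adjusted p = 0.191), and Sdha, its flavoprotein subunit, differed by -0.17 (limma adjusted p = 0.285). Iron-sulfur cluster assembly genes, which make cofactors for the matrix arm, had 6 of 11 above 0 and a median of 0.07. Bola3 (0.20) and Glrx5 (0.18) were higher at an unadjusted limma p under 0.05, as were 6.57% of all genes. Regulators of mitochondrial gene expression had 8 of 16 above 0 and a median of -0.02. The coactivator gene Ppargc1a differed by -0.17 and Gabpb2, whose product is part of a factor that binds ETS sites, by -0.37 (limma adjusted p = 0.323 and 0.246).

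**Figure D4:**
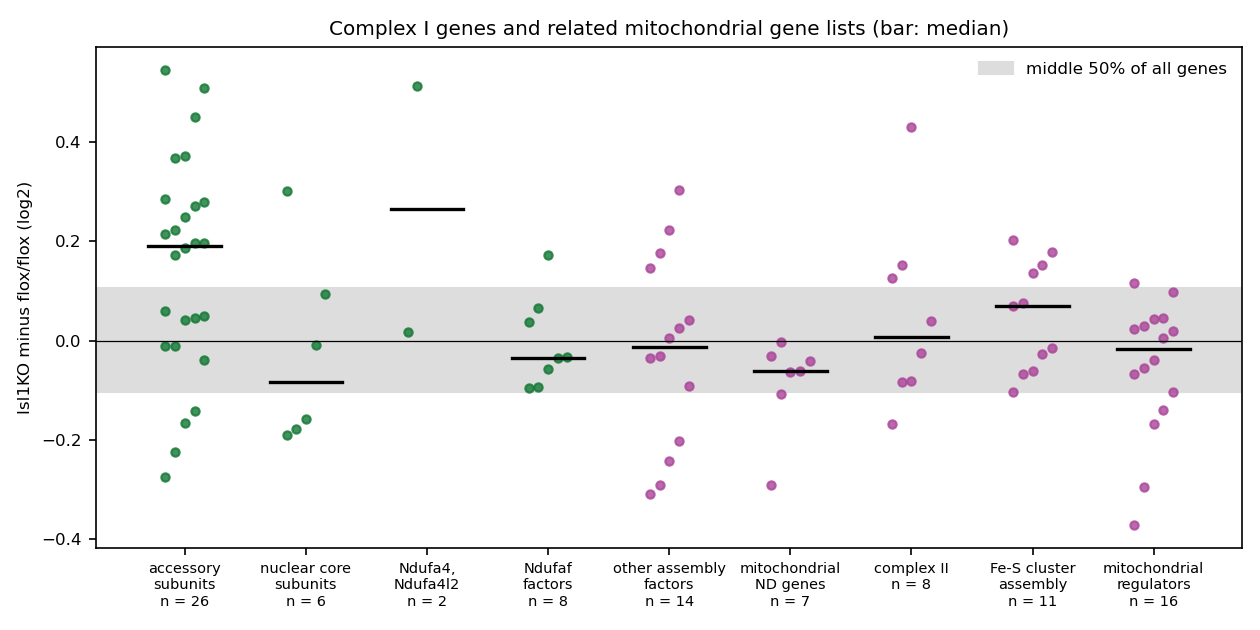
Difference between Hdac3-Isl1KO and Hdac3-flox/flox on the log2 scale for complex I genes by role (green) and for related mitochondrial gene lists (purple), where each point is a gene and bars are medians. The grey band spans the middle 50% of all genes, from -0.10 to 0.11, and the accessory subunit median of 0.19 lies above it while the medians of the core and Ndufaf genes lie inside.

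Promoters, from 250 bases before to 50 after the start, were searched on both strands for motifs of factors that regulate respiratory genes. RefSeq promoters were held for 37 of the 42 members (39 promoters, some genes having more than 1), and not for Ndufa2, Ndufa4l2, Ndufaf6, Ndufb9 and Ndufs1. The NRF1 core GCGCATGC, whose matches can overlap each other, was found in 5 member promoters (12.8%) and 2.71% of all 32851 promoters. The YY1 motif AAGATGGCG was found in 5 (12.8%) and 1.4% of all. The ETS motif CCGGAAGT was found in 1 (2.56%, against 3.89% of all), in Ndufs3, and the estrogen-related receptor motif AAGGTCA in 1 (2.56%, against 4.72%), in Ndufs5. A match describes letters and is not a measured binding site.

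The NRF1 core was in the promoters of Ndufa11 (difference 0.28), Ndufa6 (0.25), Ndufaf5 (0.07), Ndufa8 (0.06) and Ndufaf4 (-0.03). The YY1 motif was in those of Ndufs4 (0.55), Ndufc1 (0.22), Ndufaf8 (0.04), Ndufs7 (-0.01) and Ndufa9 (-0.23), in each case after the start. Holders of either motif included genes above and below 0. The 120 bases before the start are shown for Ndufa6 (GRCm38.p6, chr15:82354292-82354411, minus strand) and Ndufa11 (chr17:56717642-56717761, plus strand), the holders of the NRF1 core with the highest differences, with the core in capitals.
Ndufa6: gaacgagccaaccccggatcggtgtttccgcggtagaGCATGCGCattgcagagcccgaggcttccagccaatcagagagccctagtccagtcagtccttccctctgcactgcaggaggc
Ndufa11: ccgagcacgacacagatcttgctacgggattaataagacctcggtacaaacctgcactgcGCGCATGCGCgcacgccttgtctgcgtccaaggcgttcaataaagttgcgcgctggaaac

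Markers of cell types also differed between the groups, some lists higher and some lower in Hdac3-Isl1KO. Levels are given as the mean of a list per array. Trophoblast markers were above 0 for 10 of 11 genes (5.79 to 5.90 against 6.64 to 6.68, Hdac3-flox/flox against Hdac3-Isl1KO). Hepatic and yolk sac endoderm markers were above 0 for 13 of 15 (5.13 to 5.24 against 5.47 to 5.54), simple epithelium markers for 10 of 10 (5.70 to 5.79 against 6.02 to 6.11) and macrophage markers for 7 of 8 (5.46 to 5.70 against 5.73 to 5.91). Cardiomyocyte markers were above 0 for 2 of 12 (11.62 to 11.65 against 11.54 to 11.57), epicardial markers for 2 of 10 (7.69 to 7.75 against 7.24 to 7.27) and primitive erythroid markers for 3 of 9 (8.35 to 8.41 against 8.22 to 8.26). The erythroid median difference was -0.06 and the lowest -0.82. Of the brightest erythroid genes, Hbb-bh1 was higher (0.28) and Hbb-y lower (-0.14). Endothelial markers were above 0 for 4 of 10 and overlapped between groups (8.45 to 8.51 against 8.46 to 8.48). By limma's adjusted p, 6 trophoblast genes and 1 hepatic and yolk sac gene rose, 3 epicardial genes and 1 primitive erythroid gene fell, and no gene of the other lists passed, where 0.23% of all genes rose and 0.198% fell. RMA values have no 0, but Fga, Fgg and Tpbpa had means below the 25th percentile row, 4.45. The part of these cell types in the complex I differences was not tested.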

How the data were processed

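The authors deposited log2 values for 6 arrays, made with oligo and RMA per the submitters' processing notes. RMA subtracts background, gives arrays a common distribution and combines the probes of a row, and it compresses differences of dim genes. Tool versions and a genome build are not stated there. Per the labels' protocols, cDNA was made with the GeneChip WT PLUS kit. Of 41345 rows, 23521 had a single symbol in the platform annotation, and 23328 of these matched the RefSeq gene table (GRCm38.p6), which gave gene types. Where a gene had several rows (1082 genes, 3 of them members), that with the highest mean was taken.

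The groups were compared over all 22180 genes in R 4.3.3 with limma, version 3.58.1 (two-sided, lmFit with eBayes and 1 variance prior for all genes). Residual degrees of freedom were 4, or 6.92 with the prior. P-values were adjusted over all genes by Benjamini and Hochberg's method, and 0.05 was the threshold. Rows with several symbols were fitted among all 41345 rows. Intervals are those of limma, and SDs are over 3 arrays. The steps were tested on simulated data with 200 changed genes. They recovered 13.5% of these at a log2 change of 0.5 and 82.5% at a change of 1, so smaller changes were mostly missed there. Spreads were shuffled over all genes, whose median SDs were 0.115 in Hdac3-flox/flox and 0.103 in Hdac3-Isl1KO. Those of the members were lower, 0.085 and 0.079, and recovery at that spread was not simulated.

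Complex I genes were named as members. Values in each array were given for genes past the threshold, the 6 highest and 6 lowest, and the Ndufaf genes. From other lists up to 4 genes with the smallest p-values were named; further ones were chosen after their values were seen. The members and lists were chosen with earlier results of these data known. The alternatives left out each array or dim genes, blocked on replicate number, rescaled the arrays, averaged a gene's rows, or used trended priors, array weights or protein-coding genes only. Leaving out dim genes, the replicate block, the trended priors and the use of protein-coding genes only change p-values but not a member's difference.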

Additional observations from a re-analysis of the deposited data

How the results depend on the processing

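The count of members that rose, 2, was 0 without any 1 of the 6 arrays (limma). At an unadjusted p under 0.05 those fits had 10 to 14 members higher and 0 to 4 lower, against 5.04% to 7.34% and 5.41% to 7.8% of all genes. The count was 6 with genes below the median row left out, where 4.94% of all genes were called, 10 with a trended prior and 10 with a trended and robust prior, where 3.9% were, and 2 or 3 under the other settings apart from the block. In every setting 0 members fell. The gap between subunit and assembly factor medians, 0.17, ranged from 0.13 to 0.20 with an array left out. Of the members, 31 kept 1 sign in all 17 settings, 21 above and 10 below 0, and the signs of the other 11, all with differences between -0.04 and 0.07, turned in some setting. Settings that change only p-values could not turn a sign. The core subunit median moved from -0.08 to -0.03 without Hdac3-flox/flox replicate 2. Hdac3 passed the threshold at -0.47 with either filter on dim genes and with either trended prior, and at -0.46 with array weights.

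Whether the replicate numbers pair the samples is not known. Deviations of same-numbered arrays from their group means correlated at -0.01, -0.09 and 0.04, and those of differently numbered arrays at -0.12 to 0.12. With 3 arrays per group these values cannot decide it. With the replicate block 0 members and 0 of all genes passed limma, and 11 members were higher and 0 lower at an unadjusted p under 0.05, against 6.01% and 6.36% of all genes.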
